A study of Danio rerio with 6 samples.

Results

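Lysosomal enzymes other than cathepsins, together with lysosomal membrane proteins, were examined in cells sorted from zebrafish (Danio rerio) heads. A list of 50 genes was read from a deposited table of 11218 genes: 27 had a row under their own symbol, and 5 more had a row under another form of the name (lamp1a as zgc:64072, lamp1b as lamp1, gns as gnsb, and sumf1 and sort1a with a number suffix). The other 18 genes were not analysed here: hexa, gaa, idua, arsa, arsb, lipa, naglu, man2b2, manba, dpp7, m6pr, igf2r, cd63, mcoln1a, mfsd8, laptm4b, tmem106bb and tmem192. There were 3 libraries from scarb2a mutants (replicates 1, 2 and 3) and 3 from their wild type siblings (replicates 1, 3 and 4). All 6 came from animals at 48 hours post fertilization that carried a red fluorescent reporter, TgBAC(scar2ba:KalTA4; UAS-mKate2) in the spelling of the labels, and each held 5000 live cells, sorted as scarb2a+, from a pool of 50 heads. The mutant allele is not named in the labels. The gate follows the regulatory sequence of the reporter, so the sorted cells need not be 1 cell type, and a pool of heads does not show how single animals vary. The replicates are called biological in the labels, and p-values measure the spread between these pools.

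The lysosome breaks down macromolecules in an acid compartment. Soluble hydrolases are made in the endoplasmic reticulum, tagged with mannose 6-phosphate in the Golgi and carried by receptors to endosomes, and each enzyme removes 1 kind of bond from a glycan, a lipid or a protein. Heavily glycosylated membrane proteins line the limiting membrane, and transporters there export the products. scarb2a encodes a homologue of LIMP-2, a membrane protein of the same compartment that carries glucocerebrosidase to lysosomes, so the comparison asks whether the rest of the lysosome's genes differ when it is mutated. Many lysosomal genes are known, in mammals, to be raised together by the transcription factor TFEB when lysosomes are stressed.

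The libraries held between 1560238 and 2086990 counts, recovered from the deposited normalized counts. Values are normalized counts, and differences are in log2(value + 1), mutant minus wild type, which understates the change of genes with low values. scarb2a itself had 1.0, 5.9 and 4.5 normalized counts in mutant libraries and 3.5, 2.2 and 1.6 in wild type libraries, too few to check the genotype labels. Marker genes of other cells in the gate moved with genotype: the summed level of 20 mesenchyme markers was 5481 to 6239 in mutant libraries against 2159 to 2649 in wild type, and that of 19 lens and retina markers was 662 to 844 against 3593 to 4416. Neuronal markers (17 genes) summed to 10189 to 10607 in mutant and 12495 to 13301 in wild type libraries, and radial glia markers (18 genes) to 3976 to 4204 in mutant and 4967 to 5406 in wild type libraries. Over all genes tested 8.5% fell and 10.9% rose (limma adjusted p under 0.05). Of 17 neuronal markers tested 7 fell, none rose and 10 did not pass. Those with the highest means, elavl3 (3408 in mutants and 3729 in wild type) and tubb5 (2556 and 2829), did not pass. Of 17 radial glia markers tested 8 fell and 2 rose. The 2 that rose were slc1a3a (107.9 ± 2.44 in mutants and 61.9 ± 12.4 in wild type) and cx43 (65.5 ± 6.65 and 40.0 ± 17.3; SD, n = 3 each). Epidermal markers (11 genes) summed to 9283 to 9738 in mutant and 4319 to 6509 in wild type libraries, and endothelial markers (7 genes) to 91.0 to 124.2 and 32.3 to 57.8. In such mixtures fewer cells of a type and less RNA per cell cannot be told apart.

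Few of the lysosomal genes changed between genotypes. All 27 genes under their own symbol passed the minimum mean of 5 normalized counts, and of these 1 rose, none fell and 26 did not pass (limma, Benjamini-Hochberg adjusted over 9647 genes, threshold 0.05). Over all genes tested 19.4% passed, 10.9% as higher (1053 genes) and 8.5% as lower (820 genes). Among the 7585 genes whose mean lay in the range of these 27 genes, 16.1% passed, 9.26% as higher and 6.8% as lower. At an unadjusted p under 0.05 there were 4 of 27, against 31.2% of all genes tested and 27.8% of those in the same range; edgeR on the recovered counts called 2 and DESeq2 called 0. The median difference was -0.02 over the 27 genes (range -0.76 to 0.77) and -0.01 over all genes tested, with 13 genes above 0 and 14 below. None of the 5 genes under another form of the name passed. With equal totals for all libraries, the median of all genes moved by -0.11, the calls over all genes became 795 higher and 1306 lower, and the median of the 27 genes became -0.12; under that scaling scpep1 lost its call and hexb gained one.

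**Figure D1:**
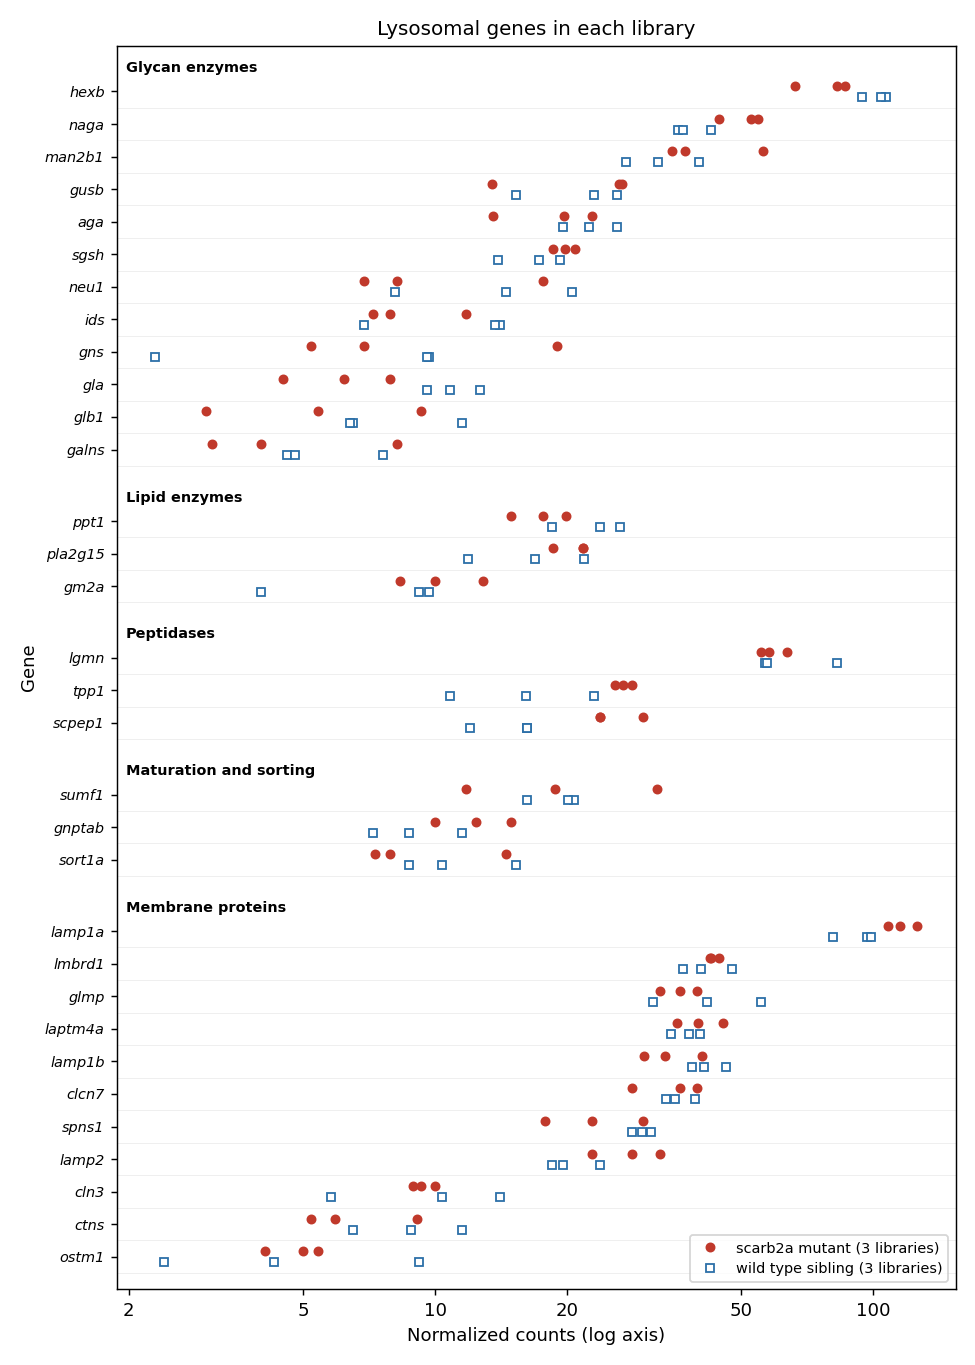
Normalized counts (horizontal log axis) of the 32 lysosomal genes with a row, in 3 mutant libraries (filled circles) and 3 wild type libraries (open squares), grouped by class and ordered by mean level. For most genes the 2 sets of points overlap; those of hexb, naga, gla, tpp1, scpep1 and lamp1a do not.

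Among glycan-degrading enzymes, none of 11 genes under their own symbol passed the test, with 4 differences above 0 and 7 below (median -0.29). With gns the median was -0.24, and it was not stable: it was -0.0615, -0.134 and -0.133 without mutant replicate 1, 2 or 3, -0.103 without wild type replicate 3, and 0.016 over the 5 genes with a minimum mean of 20. Their summed share of all counts, with gns included (12 genes), was 0.0139 to 0.0161% in mutant libraries and 0.0147 to 0.0186% in wild type libraries. hexb, which encodes the beta subunit of the hexosaminidase that cleaves GM2 ganglioside, had 82.8, 86.2 and 66.2 normalized counts in mutant libraries, against 94.6, 107.2 and 104.4 in wild type libraries. Every mutant library lay below every wild type library. The means were 78.4 ± 10.7 in mutants and 102.1 ± 6.62 in wild type (SD, n = 3 each), a difference of -0.38 (95% interval -0.67 to -0.10) with a limma adjusted p of 0.0536, just above the threshold. hexb passed in edgeR (adjusted p = 0.0446), with equal totals (0.0155), with a minimum mean of 20 (0.0409) and without mutant replicate 2 (0.0467). Its adjusted p was 0.247 in DESeq2, 0.159 in limma without a trend, 0.228 without mutant replicate 3, 0.155 without wild type replicate 3 and 0.133 without wild type replicate 4.

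The paralogues naga and gla pointed in opposite directions, and neither passed. naga, which encodes alpha-N-acetylgalactosaminidase, had 44.5, 54.5 and 52.6 normalized counts in mutant libraries, against 35.8, 36.8 and 42.6 in wild type libraries. Its difference was 0.39 (95% interval 0.03 to 0.74; limma adjusted p = 0.128), and the genotypes did not overlap. gla, which encodes alpha-galactosidase A, the enzyme that removes terminal galactose from globotriaosylceramide, had 6.2, 7.9 and 4.5 in mutant libraries, against 12.7, 10.8 and 9.6 in wild type libraries. All 3 mutant libraries were the lower ones here, from 19 counts in the mutants and 33 in wild type, and the difference was -0.76 (95% interval -1.55 to 0.02; limma adjusted p = 0.175). glb1, the beta-galactosidase gene, was at 5.9 ± 3.18 in mutants and 8.13 ± 2.92 in wild type (SD, n = 3 each), and neu1, the sialidase gene, at 10.9 ± 5.84 and 14.4 ± 6.25. Both pairs overlapped.

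Enzymes of glycosaminoglycan breakdown did not pass the test in any case. gusb, the beta-glucuronidase gene, had 13.5, 26.7 and 26.3 normalized counts in mutant libraries, against 23.1, 26.0 and 15.3 in wild type libraries; mutant 1 and wild type 4 were the low libraries, and the difference was 0.02 (95% interval -0.59 to 0.62). sgsh, the heparan sulfamidase gene, had 18.6, 19.8 and 20.9 in mutant libraries and 13.9, 17.3 and 19.3 in wild type libraries. The sulfatase genes ids and galns were at 8.97 ± 2.48 and 5.1 ± 2.72 in mutants, against 11.6 ± 4.05 and 5.67 ± 1.68 in wild type (SD, n = 3 each). gns, which encodes another sulfatase of heparan sulfate and is listed as gnsb, had 5.2, 6.9 and 19.0 in mutant libraries and 2.3, 9.7 and 9.6 in wild type libraries. It varied most among the 32 genes within genotypes, with a chi-square per degree of freedom of 3.92 against counting noise. A second gene of that name, gnsa, which was picked with its values known, had 52.8, 49.5 and 51.7 in mutant libraries and 56.6, 45.5 and 67.5 in wild type libraries, a difference of -0.12 (limma adjusted p = 0.678).

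Enzymes that trim the glycans of glycoproteins did not pass either. man2b1, the lysosomal alpha-mannosidase gene, had 37.3, 34.7 and 56.2 normalized counts in mutant libraries and 32.3, 40.1 and 27.3 in wild type libraries. Mutant 3 stood above the other 5 libraries, and the difference was 0.34 (95% interval -0.11 to 0.78; limma adjusted p = 0.305). aga, which encodes aspartylglucosaminidase, the enzyme that cuts the glycan from asparagine, had 19.7, 22.8 and 13.6 in mutant libraries and 19.6, 26.0 and 22.5 in wild type libraries. A second row of the same symbol with a number suffix held 2.7 to 5.9 in mutant and 2.2 to 5.6 in wild type libraries; with both rows summed the difference of aga was -0.20 in place of -0.29.

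Of the lipid-degrading group, 3 genes had a row and none passed. ppt1, which encodes the thioesterase that removes palmitate from proteins, had 17.6, 14.9 and 19.9 normalized counts in mutant libraries, against 26.5, 23.8 and 18.5 in wild type libraries. The sets overlapped only through mutant 3 and wild type 4, and the difference was -0.37 (95% interval -0.90 to 0.16; limma adjusted p = 0.349). pla2g15, the lysosomal phospholipase A2 gene, had 18.6, 21.8 and 21.8 in mutant libraries, against 21.9, 11.9 and 16.9 in wild type libraries. gm2a, which encodes the activator that presents GM2 ganglioside to hexosaminidase, was at 10.4 ± 2.33 in mutants and 7.63 ± 3.16 in wild type (SD, n = 3 each). The intervals of pla2g15 (-0.25 to 0.88) and gm2a (-0.37 to 1.29) both include 0.

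The peptidases held the one gene that rose. scpep1, which encodes a serine carboxypeptidase, had 23.8, 23.8 and 29.9 normalized counts in mutant libraries, against 16.2, 16.2 and 12 in wild type libraries. The genotypes did not overlap, the means were 25.8 ± 3.52 in mutants and 14.8 ± 2.42 in wild type (SD, n = 3 each), from 80 and 44 counts, and the difference was 0.77 (95% interval 0.24 to 1.30; limma adjusted p = 0.0381). The call was lost without any one of 5 libraries: the adjusted p was 0.0669 without mutant replicate 1, 0.0681 without mutant replicate 2, 0.153 without mutant replicate 3, 0.0541 without wild type replicate 3 and 0.129 without wild type replicate 4, and it stayed under the threshold only without wild type replicate 1 (0.0469). It was 0.0695 with equal totals and 0.209 in DESeq2. The difference lay between 0.63 and 0.84 in all of these fits.

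tpp1, the gene of tripeptidyl peptidase 1, had 26.9, 25.8 and 28.1 normalized counts in mutant libraries, against 23.1, 10.8 and 16.1 in wild type libraries. The mutant libraries were close together and all above the wild type ones, which were spread widely. The difference was 0.72 (95% interval 0.15 to 1.29; limma adjusted p = 0.0689); it was 0.97 without wild type replicate 1 (adjusted p = 0.0198) and 0.46 without wild type replicate 3 (0.276). lgmn, the gene of the asparaginyl endopeptidase legumain, had 58.0, 55.5 and 63.5 in mutant libraries and 56.6, 57.4 and 82.7 in wild type libraries. Wild type 4 was the one high library, and the difference was -0.13 (95% interval -0.47 to 0.21).

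Markers of cells with many lysosomes or lysosome-related organelles were examined as well. Of 30 macrophage and microglia markers 11 had a row and 9 were tested. Of these 1 rose and none fell, against 10.9% and 8.5% of all genes tested. The 1 that rose, mfap4, had 68.3, 59.4 and 80.7 normalized counts in mutant libraries, against 10.4, 36.8 and 28.1 in wild type libraries (limma adjusted p = 0.000822). Of the 9 tested, 7 differences were above 0 and 2 below (median 0.50). An unadjusted p under 0.05 (limma) was found for 6 of the 9, against 31.2% of all genes tested. Among these were aif1l as lower (-0.47) and grna as higher (1.14). The summed level of the 11 was 419 to 673 in mutant and 334 to 455 in wild type libraries. apoeb alone held 245.7 to 415.3 of this in mutant and 175.1 to 289.1 in wild type libraries. Low values left p2ry12 and mpx untested, and each was at 0 in at least 1 library. p2ry12 had 2.1, 4.0 and 8.2 in mutant libraries, against 0, 1.1 and 0 in wild type. mpx, a neutrophil gene that the list also holds, had 3.1, 0 and 0, against 0, 4.3 and 20.1. Of 17 pigment cell markers 13 had a row, and 6 of 10 tested rose and none fell. Over all genes tested 10.9% rose and 8.5% fell. The melanosome matrix gene pmela averaged 206.5 ± 40.0 in mutants and 66.9 ± 9.72 in wild type (SD, n = 3 each). The summed level of the 13 pigment cell markers was 708 to 979 in mutant and 338 to 397 in wild type libraries. The part of these cells in the levels of scpep1, tpp1, naga and lamp1a was not tested.

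**Figure D2:**
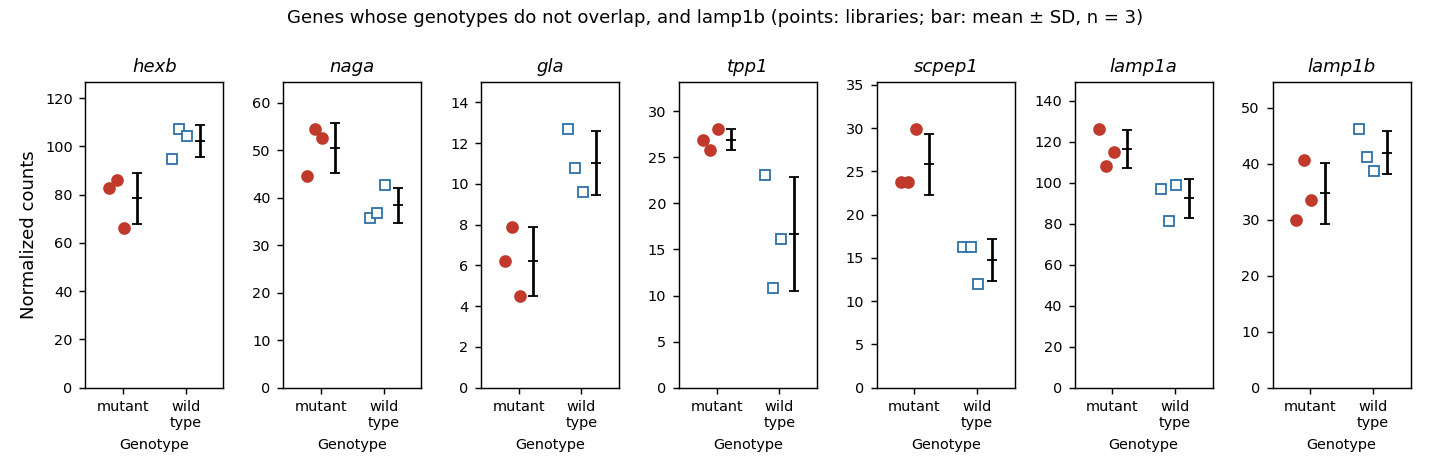
Normalized counts of 7 genes in 3 mutant libraries (filled circles, left) and 3 wild type libraries (open squares, right), with mean ± SD (n = 3), on axes that start at 0. The mutant points lie above all wild type points for naga, tpp1, scpep1 and lamp1a and below them for hexb and gla, while those of lamp1b overlap.

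Genes that mature and sort the enzymes did not pass, with 3 genes tested. gnptab, which encodes the catalytic part of the phosphotransferase that starts the mannose 6-phosphate tag, had 12.4, 14.9 and 10 normalized counts in mutant libraries, against 11.5, 8.7 and 7.2 in wild type libraries (difference 0.41, 95% interval -0.30 to 1.12). sumf1, which encodes the enzyme that activates sulfatases, had 32.1, 18.8 and 11.8 in mutant libraries and 20.8, 16.2 and 20.1 in wild type libraries. The mutant libraries surrounded the wild type ones, and the chi-square per degree of freedom within genotypes was 2.79. sort1a, a sortilin gene that offers a route to lysosomes apart from the mannose 6-phosphate receptors, had 14.5, 7.9 and 7.3 in mutant libraries and 10.4, 8.7 and 15.3 in wild type libraries. Its paralogue sort1b, listed under its own symbol, was at 17.6, 9.9 and 10 in mutant libraries and 13.9, 10.8 and 14.5 in wild type libraries, and overlapped likewise.

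The fitted differences of membrane protein genes lay on both sides of 0, and no gene passed. Of 9 genes under their own symbol none passed, 4 differences were above 0 and 5 below, and they ran from -0.36 for ctns to 0.41 for lamp2 (median -0.02). For 7 of the 9 (77.8%) the 95% interval lay between -1 and 1, against 61.1% of all genes tested and 53.2% of those in the range of levels of the 27 genes. With both lamp1 genes (11 genes) their summed share of counts was 0.0199 to 0.0205% in mutant libraries and 0.02001 to 0.0219% in wild type libraries. lmbrd1, which encodes a lysosomal cobalamin exporter, had 42.4, 44.6 and 42.6 normalized counts in mutant libraries, against 40.4, 47.6 and 36.9 in wild type libraries; its difference of 0.06 had an interval of -0.30 to 0.42. laptm4a, which encodes a small membrane protein, had 45.5, 35.7 and 39.9 in mutant libraries, against 38.1, 34.6 and 40.2 in wild type libraries, with an interval of -0.28 to 0.47. clcn7, the gene of the lysosomal chloride-proton exchanger, was at 34.6 ± 5.91 in mutants and 36.0 ± 2.87 in wild type (SD, n = 3 each), and its partner ostm1, the beta subunit of that exchanger, at 4.83 ± 0.666 and 5.3 ± 3.51. None of these 4 genes had separate genotypes.

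The LAMP genes, which encode the abundant glycoproteins of the lysosomal membrane, pointed in different directions, and none passed. lamp1a had 126.3, 108.0 and 115.1 normalized counts in mutant libraries, against 97.0, 81.2 and 98.8 in wild type libraries. All mutant libraries were higher, and the difference was 0.33 (95% interval 0.07 to 0.60; limma adjusted p = 0.0700). lamp1b had 30.0, 40.6 and 33.5 in mutant libraries, against 46.2, 41.1 and 38.6 in wild type libraries, a difference of -0.27 (95% interval -0.66 to 0.12; limma adjusted p = 0.344). lamp2 had 22.8, 32.7 and 28.1 in mutant libraries, against 19.6, 23.8 and 18.5 in wild type libraries, a difference of 0.41 (95% interval -0.08 to 0.90; limma adjusted p = 0.247). Within a library the value of lamp1a was 4.21, 2.66 and 3.44 times that of lamp1b in mutants, against 2.1, 1.98 and 2.56 times in wild type. The ratios did not overlap, and the exact permutation test of the log2 ratio, two-sided, gave p = 0.1, the smallest that 3 against 3 libraries allow. This ratio was picked with its values known.

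The other transporters and membrane proteins overlapped between genotypes. spns1, which encodes a lysosomal lysophospholipid transporter, had 22.8, 17.8 and 29.9 normalized counts in mutant libraries, against 31.2, 28.1 and 29.7 in wild type libraries (difference -0.35, 95% interval -0.83 to 0.13). glmp, which encodes a glycosylated membrane protein, had 36.2, 39.6 and 32.6 in mutant libraries and 55.4, 31.4 and 41.8 in wild type libraries. Wild type 1 was the high library for glmp. ctns, the gene of the cystine exporter cystinosin, was at 6.73 ± 2.08 in mutants and 8.93 ± 2.50 in wild type (SD, n = 3 each), and cln3, a gene of juvenile Batten disease in humans, at 9.4 ± 0.557 and 10.1 ± 4.16.

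**Figure D3:**
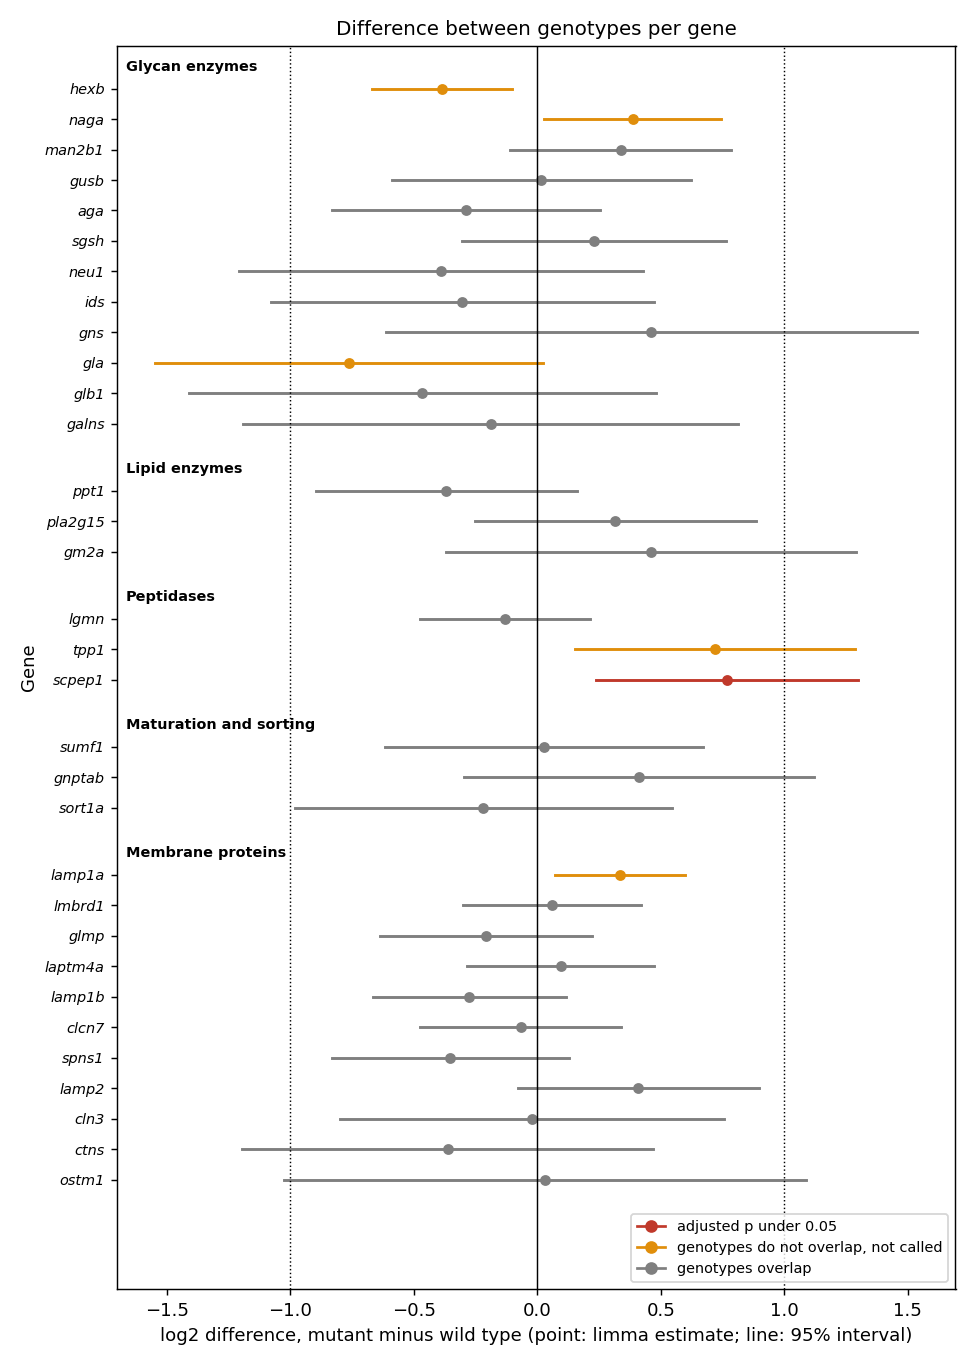
Fitted log2 difference, mutant minus wild type (points), with its 95% interval (lines), for the 32 genes by class; dotted lines stand at -1 and 1. Only scpep1 passed the adjusted threshold, and the intervals of hexb, naga, tpp1, scpep1 and lamp1a leave out 0.

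The intervals show how large a change these libraries leave room for. Of the 27 genes, 16 had a 95% interval between -1 and 1, which is 59.3%, against 61.1% of all genes tested, and 53.2% of those in the same range of levels. The intervals that reach past -1 or 1 belong to gla, glb1, neu1, ids, galns, gm2a, tpp1, scpep1, gnptab, ctns and ostm1, and of the 5 genes under another form of the name to gns. All but tpp1 and scpep1 averaged under 15 normalized counts in both genotypes. The genotypes did not overlap for 5 of the 27 genes (3 higher, 2 lower), against 34.6% of all genes tested and 31.3% of those in the same range of levels, and for lamp1a among the other 5. Within genotypes the median spread was near counting noise, with a median chi-square per degree of freedom of 0.826 over the 27 genes and 1.07 over all genes tested. The highest of the 27 were neu1 (2.77), man2b1 (2.36) and gusb (2.07). Abundant epidermal markers lay far above, such as krt91 (54.7) and cyt1l (85.9). At low counts this measure can show little of the spread between pools.

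**Figure D4:**
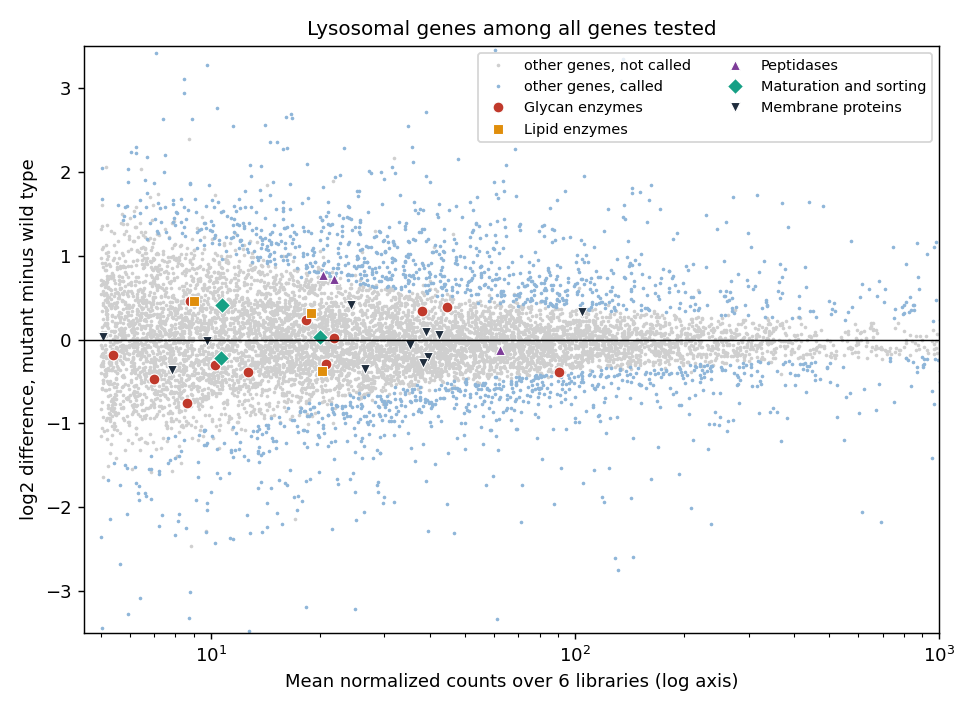
Fitted log2 difference, mutant minus wild type, against the mean normalized counts over 6 libraries (log axis) for all genes tested, with the 32 lysosomal genes by class; genes beyond the axes are not drawn. The lysosomal genes lie between -0.76 and 0.77 at means from 5.07 to 104.4.

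Summed over all 32 genes, the level was 856 to 870 normalized counts in mutant libraries and 832 to 855 in wild type libraries. As a share of all counts, it was 0.0450 to 0.0477% in mutant libraries and 0.0475 to 0.0504% in wild type libraries, with exact 95% intervals from 0.0420 to 0.0508% and from 0.0441 to 0.0535% that cover counting error only. Mutant libraries were all above wild type ones in the summed normalized level. The shares leaned the other way and overlapped only through mutant 3 (0.0477%) and wild type 1 (0.0475%). Mutant 1 and mutant 2 lay below all wild type libraries in share. The nearest summed levels were 856 in mutant 2 and 855.2 in wild type 1. They lay closer than the value of 1 count in either library (0.99 and 1.15). Peptidases took 0.00552 to 0.00666% in mutant and 0.00488 to 0.00661% in wild type libraries.

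**Figure D5:**
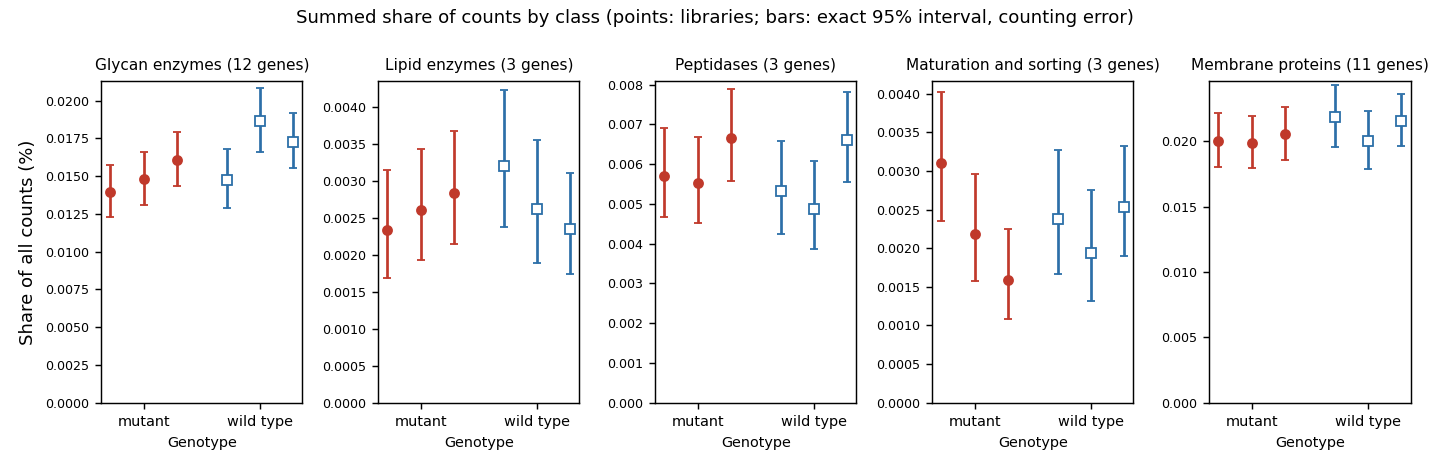
Share of all counts (%) taken by each class in 3 mutant libraries (filled circles, left) and 3 wild type libraries (open squares, right), with exact 95% intervals for counting error, on axes that start at 0. In all 5 classes the range of the mutant points overlaps that of the wild type points.

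In 4 further lists of lysosomal genes the main fit called 1 gene. Of 62 genes tested there, bhlhe40 rose, none fell and 61 did not pass, against 19.4% of all genes tested that passed. The median difference was -0.02. None of 12 further enzymes and cofactors, 26 further membrane proteins and transporters or 19 further trafficking genes passed. Their medians were 0.09, -0.06 and -0.07. Of the 62, 9 had an unadjusted p under 0.05, against 31.2% of all genes tested. Other fits did call genes in these lists. limma without a trend called 1 enzyme and 2 membrane proteins, and equal totals called 2 membrane proteins. Without mutant replicate 1 or 3, 1 membrane protein passed. The regulator list held 2 genes that passed without mutant replicate 1. Without wild type replicate 3, the enzyme, membrane protein and trafficking lists each held 1 gene that passed. These need not be different genes, because some lists share genes. The enzyme list shares sumf2 and gnptg with the trafficking list and hgsnat with the membrane protein list. Of 16 listed regulators of lysosome biogenesis 7 had no matched row, tfeb among them, so tfeb itself was not tested. Low values left mitfa untested. The 8 tested were tfe3a, tfec, fnip1, mtor, tsc1a, tsc2, stub1 and bhlhe40. Of the 8, 1 rose and none fell, against 10.9% and 8.5% of all genes tested. Of these, bhlhe40, a transcriptional repressor best known from the circadian clock, had 30.0, 35.7 and 35.4 normalized counts in mutant libraries, against 12.7, 26.0 and 16.9 in wild type libraries. Its difference was 0.88 ± 0.254 (SE; limma adjusted p = 0.0191), and its adjusted p was above the threshold without mutant replicate 2 or 3 or wild type replicate 1 or 4 (0.0640, 0.0698, 0.0807 and 0.0560), in DESeq2 (0.119) and in limma without a trend (0.0827).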

How the data were processed

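Messenger RNA of sorted cells was read with MARS-seq on bulk samples, a 3′-end method, per the labels' protocols. The genome build danRer11 is named in the submitters' processing notes. The aligner and counter were not given in the sources used here. Values in the deposited table are a normalized signal. In each library they come in equal steps, and 99.997% of 67308 values gave a whole count (tolerance 0.0505), so counts could be recovered. Every gene reached 6 counts in at least 1 library.

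Differences were fitted with limma on log2(value + 1), with a trend of variance on level and no covariate, for all genes with a mean of 5 or more, and p-values were adjusted after Benjamini and Hochberg over all of them. Classes are described by counts and medians. By rule, all members with a row are named, and library values are given for those called, those with an unadjusted p under 0.05, those with separate genotypes and the 2 highest of each class; library values of further members were added with the data known. Members and lists were chosen with earlier results of these data known. Older names came from the RefSeq table of GRCz12tu. Intervals of shares cover counting error only. limma 3.58.1 was used in R 4.3.3, with edgeR 4.0.16 and DESeq2 1.42.0 on the recovered counts and Python 3.11.15 for summaries. Alternatives were other pseudocounts, filters and scalings, both count tools, summed rows, a replicate block and each library left out.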

Additional observations from a re-analysis of the deposited data

How the results depend on the processing

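The number of genes called in all was 1873, and 1007 without a trend in limma and 1031 in DESeq2. Of the 27 lysosomal genes 1 was called, but 2 in edgeR, 2 of the 15 tested with a minimum mean of 20, 0 in DESeq2, and 0 to 2 with 1 library left out. Their median of -0.02 became -0.12 with equal totals and -0.0885 in DESeq2, and ran from -0.0874 to 0.0083 with 1 library left out. Only replicates 1 and 3 occur in both genotypes. With the replicate number as a replicate block, the difference therefore came from mutant 1 and 3 against wild type 1 and 3. Mutant 2 and wild type 4 added nothing to it. In that fit 0 of the 27 genes were called, the median was -0.0923 and lamp1a passed (0.44, adjusted p = 0.0475). Deviations of each gene from its genotype mean, in log2(value + 1), were correlated between mutant and wild type libraries. For same-numbered libraries these correlations were 0.0429 and -0.00952, so the numbers were not taken as pairs. The block also gave bhlhe40 an adjusted p of 0.0611 and scpep1 one of 0.180. With the block 1 gene of the further trafficking list passed. In the fits named next, 12 genes changed sign, and none passed there. With the replicate block this was so for cln3 (0.071), gm2a (-0.0467), gusb (-0.36), lgmn (0.089), lmbrd1 (-0.0443), ostm1 (-0.36) and sort1a (0.11). With equal totals it was so for gusb (-0.0905), laptm4a (-0.015), lmbrd1 (-0.0502), ostm1 (-0.0576) and sumf1 (-0.0788), and for ostm1 with a pseudocount of 5 (-0.015) and in edgeR (-0.0377). With 1 library left out the lowest and highest values were those of clcn7 (-0.168 and 0.0724), cln3 (-0.337 and 0.239), galns (-0.3005 and 0.0532), gns (-0.101 and 0.803), gusb (-0.199 and 0.324), lgmn (-0.223 and 0.0467), lmbrd1 (-0.0216 and 0.158), ostm1 (-0.34 and 0.124) and sumf1 (-0.324 and 0.361). Beyond the libraries and settings that each fit used, the cause of these changes was not tested. At this depth the 95% intervals of 10 genes averaging under 15 normalized counts reached past -1 or 1.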
